A study of Mus musculus with 2 samples.

Results

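The 5 imprinted microRNA (miRNA) genes that lie outside the Dlk1-Dio3 region, Mir335, Mir296, Mir298, Mir483 and Mir675, were examined in newborn mouse lung. They were chosen by symbol and by the imprinted locus they belong to, Mest for Mir335, Gnas for Mir296 and Mir298, Igf2 for Mir483 and H19 for Mir675. The rule itself uses no level, although the genes were picked for description with earlier results of these data known. All 5 were found among the 1973 miRNA genes of the deposited tables. The study sequenced RNA under 30 bases from lung tissue of B6NCrl mice, an inbred strain, at postnatal day 0, and the labels name no treatment or altered gene. The labels give 1 group of 2 biological replicates from pregnancy 1, replicate 1 from the 2 lungs of pup 1 and replicate 2 from the 2 lungs of pup 3. They give both replicates the same donor record and name no sex. With 1 tissue, 1 age and no second condition, the data allow a description of these genes, ratios between them and a comparison of the 2 libraries.

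Imprinted genes are expressed from the chromosome of only 1 parent, and many of them control growth before and after birth. Mest, Igf2 and the antisense transcript Nespas of the Gnas locus are known as paternally expressed, and H19 as maternally expressed. A miRNA is cut from a hairpin precursor, and the seed near its 5′ end is the main determinant of which messenger RNAs it represses. The counts do not separate parental alleles, and a gene's count joins the products of both arms of its hairpin.

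The mature products are shown first because their seeds set these genes apart from one another. Whether the counted reads were these exact sequences was not examined. The products are taken from RefSeq on GRCm38.p6, where all 5 genes matched, 5′ to 3′, with the seed (bases 2 to 8) in capitals.
mmu-miR-335-5p: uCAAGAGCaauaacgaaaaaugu
mmu-miR-335-3p: uUUUUCAUuauugcuccugacc
mmu-miR-296-5p: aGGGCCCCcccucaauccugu
mmu-miR-296-3p: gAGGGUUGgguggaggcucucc
mmu-miR-298-5p: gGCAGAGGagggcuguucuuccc
mmu-miR-298-3p: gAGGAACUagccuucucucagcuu
mmu-miR-483-5p: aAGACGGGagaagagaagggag
mmu-miR-483-3p: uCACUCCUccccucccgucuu
mmu-miR-675-5p: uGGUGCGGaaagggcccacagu
mmu-miR-675-3p: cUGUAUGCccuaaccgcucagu
None of these 10 seeds is held by a mature product of another gene among the 1738 mature sequences of the table, of which 32.0% share their seed with a product of another gene. The 10 seeds also differ from one another, so none is shared between the 5 genes, not even between the neighbours Mir296 and Mir298. Base composition differed widely. The product miR-335-5p has 12 A among 23 bases and 30.4% G or C, miR-296-5p has 10 C among 21 bases and 66.7% G or C, and miR-483-5p has 11 G, 10 A and 0 U among 22 bases.

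The hairpins are shown because the counts were made on the precursor genes, with the bases of the mature products in capitals.
Mir335, chr6:30741299-30741396, plus strand: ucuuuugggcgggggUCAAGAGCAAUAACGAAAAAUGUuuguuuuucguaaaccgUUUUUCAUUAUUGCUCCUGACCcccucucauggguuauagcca
Mir296, chr2:174267047-174267125, minus strand: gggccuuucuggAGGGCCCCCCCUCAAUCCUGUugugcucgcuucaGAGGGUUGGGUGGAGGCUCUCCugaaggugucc
Mir298, chr2:174267504-174267585, minus strand: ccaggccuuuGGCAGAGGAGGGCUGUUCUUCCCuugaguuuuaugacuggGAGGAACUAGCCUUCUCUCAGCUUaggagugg
Mir483, chr7:142654924-142654996, minus strand: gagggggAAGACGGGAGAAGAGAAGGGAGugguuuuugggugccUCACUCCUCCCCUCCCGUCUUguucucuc
Mir675, chr7:142577064-142577147, minus strand: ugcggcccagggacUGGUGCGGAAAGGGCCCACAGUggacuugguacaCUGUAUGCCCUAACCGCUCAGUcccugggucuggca
The hairpin of Mir335 was the longest at 98 bases and that of Mir483 the shortest at 73. In GC content Mir335 stood at 42.9%, Mir298 at 53.7%, Mir483 at 58.9%, Mir675 at 63.1% and Mir296 at 63.3%. The median over the 268 hairpins of detected genes, those with at least 10 reads in each library, was 50.0%, so Mir335 lay below it and the other 4 above. By the minimum free energy of folding, Mir675 was the most stable at -56.0 kcal/mol, and 7 of the 268 hairpins had a lower value. Mir335, Mir296 and Mir298 lay between -44.3 and -42.7 kcal/mol and Mir483 at -33.8, against a median of -37.05. These energies are of whole hairpins, which differ in length. Per base, Mir675 stood at -0.667 kcal/mol, Mir296 at -0.547, Mir298 at -0.521, Mir483 at -0.463 and Mir335 at -0.452.

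The genes were placed on GRCm38 (mm10) by GENCODE M21, at the same positions as in RefSeq. Mir335 (ENSMUSG00000065501.1) lies in an intron of Mest, a hydrolase-like gene of the developing mesoderm, and is intronic in all 7 Mest transcripts that span it. Mir483 (ENSMUSG00000070140.1) is intronic in all 7 transcripts of the growth factor gene Igf2 that span it, in intron 2 of 6 of them. The annotated gene Gm49394 also overlaps Mir483 on the same strand. Mir675 (ENSMUSG00000076275.1) overlaps an exon in 3 of the 4 H19 transcripts that span it and an intron in the other. It lies 77776 bases from Mir483 on the same strand. Mir296 (ENSMUSG00000065521.1) and Mir298 (ENSMUSG00000065410.1) lie 378 bases apart on the minus strand of chromosome 2. No annotated gene overlaps either of them. The annotated 3′ end of Nespas, which runs on the same strand, is 13651 bases from Mir298, and Gnas, which encodes the stimulatory G protein alpha subunit, runs on the opposite strand. The map of the loci shows these distances.

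**Figure D1:**
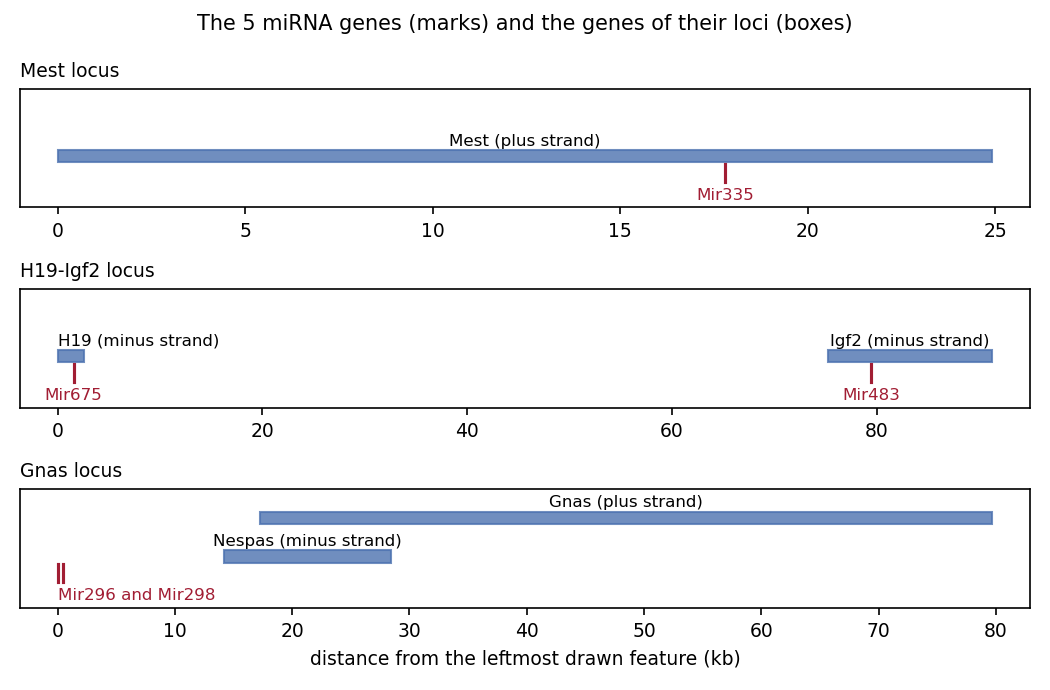
Map of the 3 loci, with distance in kilobases on the horizontal axis, boxes for annotated genes and marks for the miRNA genes. Mir335 and Mir483 lie inside Mest and Igf2, Mir675 inside H19, and Mir296 and Mir298 13651 bases or more outside Nespas. Gm49394, which also overlaps Mir483, is not drawn.

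The reads counted on the strand of a miRNA gene numbered 4532902 in replicate 1 and 5426081 in replicate 2. Levels are given as counts per 1000000 of these reads (CPM). Each read was taken as the sequence of 1 small RNA shorter than 30 bases, so levels of different genes were compared without division by length. How far the capture of a product depends on its sequence was not tested. The labelled tissue was checked on its markers. Endothelial Mir126a stood at 160640 and 160658 CPM in replicates 1 and 2, the 4 epithelial markers summed to 29775 and 29947 CPM, and the multiciliated markers Mir449a and Mir34c to 21912 and 22077 CPM. Of markers chosen for other tissues, 3 of heart and skeletal muscle summed to 407 and 445 CPM, and their source was not tested. The liver marker Mir122 stood at 45.9 and 53.1 CPM, and Mir216a and Mir217 of pancreas summed to 1.32 and 0.921 CPM. For brain, Mir9-1 matched no row and Mir124a-1 had 0 reads in each library, as did its copy Mir124a-3. Reads mapped to several places are in no gene row, so this 0 does not show that brain RNA was absent. The intervals below reflect counting error of reads alone. PCR copies of 1 molecule are counted as separate reads, so the intervals may be too narrow for the sampling of molecules.

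All 5 genes were detected, against 15.6% of the 1973 genes measured. Of the 869 measured genes with a RefSeq hairpin, as all 5 have, 268 were detected. Their levels spanned more than 3 orders of magnitude, from Mir335, which ranked 4 among all miRNA genes, to Mir675, which ranked 232. Ranks and shares cover only reads placed on a gene row, and 34.6% and 36.7% of all reads mapped to several places. Genes with near-identical copies may therefore be counted too low, which may favour these 5 genes. How far it does was not tested. The 5 genes together held 267234 and 313360 reads, or 5.84% ± 0.0851 (SD, n = 2) of the reads on miRNA genes. Mir335 alone made up 98.2% and 97.9% of that sum in replicates 1 and 2. The other 4 genes together took 0.113% ± 0.0136 of the reads.

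Mir335, which has been studied as a repressor of Sox4 and tenascin C, was counted with 262531 reads in replicate 1 and 306685 in replicate 2. This is 57917 CPM in replicate 1 and 56521 CPM in replicate 2, and the mean was 57219 ± 987 CPM (SD, n = 2). The exact Clopper-Pearson 95% interval of its share was 5.77% to 5.81% in replicate 1 and 5.63% to 5.67% in replicate 2. It ranked 4 in each library, below Mir143 of smooth muscle at 65604 and 70070 CPM and above Mirlet7g at 44321 and 51282 CPM. Neither of these neighbours overlapped it in the 2 libraries.

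The Gnas locus pair came next. Mir296, known from endothelial cells of growing vessels, was counted with 2037 and 3612 reads in replicates 1 and 2. Its level was 449 CPM in replicate 1 (95% interval 430 to 469) and 666 CPM in replicate 2 (644 to 688). Its mean was 558 ± 153 CPM (SD, n = 2), the widest relative spread of the 5 genes. Mir298 was counted with 1829 and 2242 reads, at 403 CPM in replicate 1 (385 to 422) and 413 CPM in replicate 2 (396 to 431). Its mean was 408 ± 6.86 CPM. Mir296 was thus above Mir298 in each library, by 1.11-fold in replicate 1 (exact 95% interval 1.05 to 1.19) and by 1.61-fold in replicate 2 (1.53 to 1.70). Over the 2 libraries the log2 ratio was 0.42 ± 0.38 (SD, n = 2), so the mean difference was little larger than the spread.

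At the H19-Igf2 locus both genes were lower. Mir483, which is cut from an Igf2 intron and is known to accompany Igf2 expression, was counted with 743 reads in replicate 1 and 711 in replicate 2. Its level was 164 CPM in replicate 1 (152 to 176) and 131 CPM in replicate 2 (122 to 141), with a mean of 147 ± 23.2 CPM (SD, n = 2). Mir675, the product of H19 that is known to limit placental growth through Igf1r, had 94 and 110 reads. Its level was 20.7 CPM in replicate 1 (16.8 to 25.4) and 20.3 CPM in replicate 2 (16.7 to 24.4), with a mean of 20.5 ± 0.329 CPM. The intervals are wider than the gap between the libraries, so its small SD says little of the spread between pups. Mir483 exceeded Mir675 by 7.90-fold in replicate 1 (exact 95% interval 6.37 to 9.90) and by 6.46-fold in replicate 2 (5.28 to 7.97), a log2 ratio of 2.84 ± 0.21. These are levels of the miRNAs and do not measure the host transcripts.

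**Figure D2:**
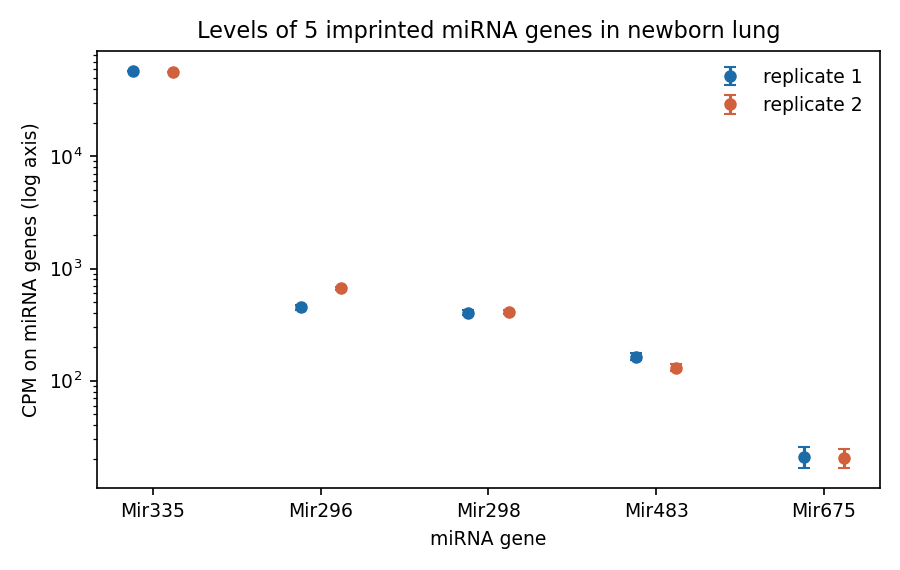
Level of each of the 5 miRNA genes in CPM (log axis) in replicates 1 and 2, with bars for the exact 95% intervals of counting error. Mir335 stands at 57917 and 56521 CPM, and the remaining genes lie between 20.3 and 666 CPM.

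The order Mir335, Mir296, Mir298, Mir483, Mir675 was the same in each library. Mir335 exceeded Mir296 by a log2 ratio of 6.71 ± 0.43 (SD, n = 2), and Mir298 exceeded Mir483 by 1.48 ± 0.25. Each of these steps, and that from Mir483 to Mir675, was several times its SD, while the step from Mir296 to Mir298 was not. From top to bottom, Mir335 exceeded Mir675 by 2793-fold in replicate 1 (exact 95% interval 2282 to 3456) and by 2788-fold in replicate 2 (2313 to 3392). No p is given for these ratios, because with 2 libraries the smallest p of an exact sign-flip test, two-sided, is 0.5.

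In the ranking of all miRNA genes the 4 lower genes lay close to their neighbours in level. Mir296, at rank 100, stood between Mir34a at 577 and 557 CPM and Mir10b at 485 and 555 CPM, and overlapped both. Mir298, at rank 115, overlapped Mir433 above it at 419 and 402 CPM, while Mir320 below it was lower in each library at 400 and 392 CPM, in replicate 1 by less than the counting error of Mir298. Mir483, at rank 152, overlapped Mir671 at 149 and 150 CPM and Mir669o at 153 and 140 CPM. Mir675 overlapped Mir7b at 24.05 and 18.1 CPM and Mir551b at 20.5 and 20.5 CPM. The ranks of these 4 genes are therefore not separated from those of their neighbours beyond the spread or counting error. With 2 libraries, no likeness of pattern across samples could be measured.

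**Figure D3:**
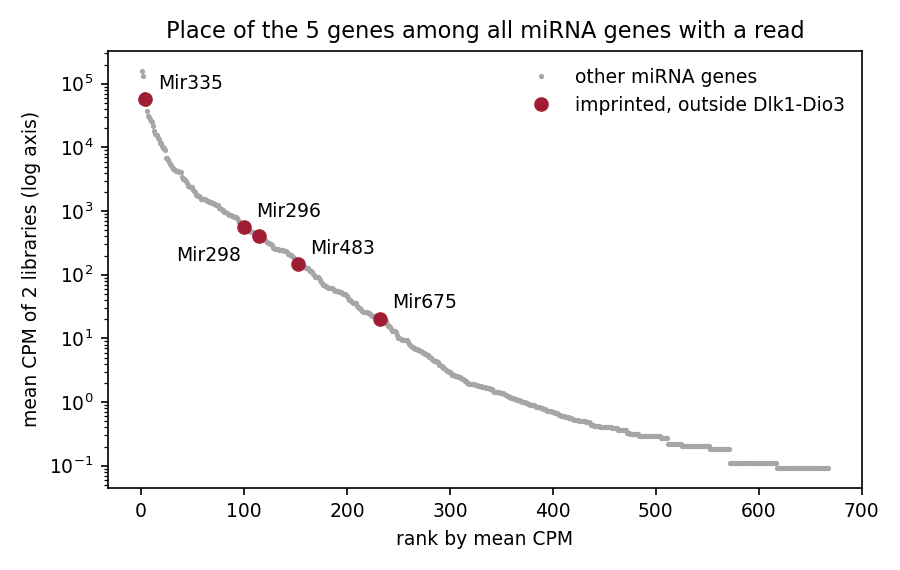
Mean CPM of the 2 libraries (log axis) against rank for every miRNA gene with at least 1 read, in grey, with the 5 imprinted genes in red. Mir335 lies at rank 4 and the others at ranks 100, 115, 152 and 232.

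Other imprinted miRNA genes were set beside them. The Dlk1-Dio3 region, a large maternally expressed cluster on chromosome 12, had 59 genes between Meg3 and Dio3 in the tables, and 43 of them were detected. They summed to 36683 ± 38.9 CPM (SD, n = 2), led by Mir411 at 6884 ± 214 CPM, Mir127 at 6737 ± 819 CPM and Mir379 at 4472 ± 210 CPM. Mir335 by itself exceeded this sum by 1.58-fold in replicate 1 and 1.54-fold in replicate 2, a log2 ratio of 0.64 ± 0.026. The other 4 genes together lay below it by a log2 ratio of -5.02 ± 0.17. Within Sfmbt2, another paternally expressed host in which miRNA genes are clustered, 8 of 107 genes were detected, with a sum of 1644 ± 28.2 CPM. Mir467e at 466 ± 12.5 CPM was its highest member, and Mir467d and Mir467c, at 443 ± 18.2 and 393 ± 8.63 CPM, followed at about the level of Mir298. Mir335 exceeded this sum by 35.7-fold and 34.0-fold in replicates 1 and 2. Many Sfmbt2 miRNAs are near-identical copies, whose reads with several positions are in no gene row. Mir184, an imprinted gene of chromosome 9, had 28 and 34 reads, or 6.22 ± 0.0629 CPM, below Mir675. The median level of the 5 genes, that of Mir298, was 403 and 413 CPM, against 139 and 140 CPM over the other detected miRNA genes. Genes with copies may be counted too low, so this comparison may favour the 5 genes.

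None of the 5 genes shares a stretch of 20 bases with another of the 2202 miRNA genes of GENCODE M21. Their mature sequences were found in no transcript of another gene, apart from those of Mir675 in its host H19. These were exact matches only, and the rest of the genome was not searched. Which genes the reads mapped to several places came from was not tested.

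The strand on which the reads lay was a further readout. The columns are taken as the gene's own and its opposite strand from their values. Across all miRNA genes, 98.2% and 98.0% of the reads in replicates 1 and 2 were on the strand of the gene, and 6 gene rows held 80.0% and 80.6% of the reads on the opposite strand. Of the 308 detected genes, 283 had 0 opposite-strand reads in each library, and 294 had at most 1 in all, so the 5 imprinted genes were like most detected genes in this. On the opposite strand of the 5 genes there was 1 read in all, at Mir335 in replicate 2, beside 306685 reads on its own strand. For Mir335 in replicate 1, a count of 0 allows an opposite-strand share of up to 0.00114%. For Mir296 the limits were 0.147% and 0.0831% in replicates 1 and 2, for Mir298 0.164% and 0.134%, and for Mir483 0.404% and 0.422%. Mir675, with the fewest reads, allows up to 3.19% and 2.73%.

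The 2 libraries were then compared gene by gene, by the exact binomial test (two-sided) of each gene's reads against the library totals and Benjamini-Hochberg adjustment over the 375 genes with at least 10 reads in all. This test sets the libraries against counting error of reads and compares no condition. As PCR copies are counted as separate reads, its p may be too small. Mir296 was higher in replicate 2, by a log2 ratio of 0.57 (95% interval 0.49 to 0.65) with an adjusted p of 6.30e-46 in the exact test. Mir483 was lower in replicate 2, by a log2 ratio of -0.32 (-0.47 to -0.17) with an adjusted p of 8.09e-05 in the exact test. For Mir335 the log2 ratio was -0.035 with an adjusted p of 2.98e-19 in the exact test, and it turned to 0.034 with TMM scaling and 0.018 with DESeq2's size factors, so its direction is set by the scaling. With this many reads, a ratio of 0.976 between the libraries passed the test.

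Mir298 and Mir675 did not pass. Their log2 ratios were 0.034 (95% interval -0.055 to 0.12) and -0.033 (-0.44 to 0.38), with adjusted p of 0.631 and 0.955 in the exact test. For Mir675 the interval is wide enough to hold a change like that of Mir483 in replicate 2. Thus 3 of the 5 genes were called, 1 higher and 2 lower in replicate 2. Of all genes tested, 42.4% were called, 19.2% higher and 23.2% lower, so a call is common in these libraries. The share of higher genes among those called was 45.3%, and it rose to 62.3% with TMM scaling and 58.5% with DESeq2's size factors. In the Dlk1-Dio3 region 25 of 46 genes tested were called, 12 higher and 13 lower, in the Sfmbt2 intron 1 of 10, higher, and Mir184 was not called.

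The size of the differences was read against the other genes. Over the 233 genes whose mean count reached 100 reads, the log2 ratio between libraries had an SD of 0.26 and a median absolute value of 0.17. The ratio of Mir296 was exceeded by 2 of these genes, and in absolute size by 12. For Mir483, 36 genes had a larger absolute ratio, and for Mir335, Mir298 and Mir675 between 205 and 209 had. Mir335 and Mir298 thus differed less between the libraries than most of these genes, and Mir296 more, with scaling to the library totals. The interval of Mir675, from -0.44 to 0.38, is too wide to place it in this way.

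**Figure D4:**
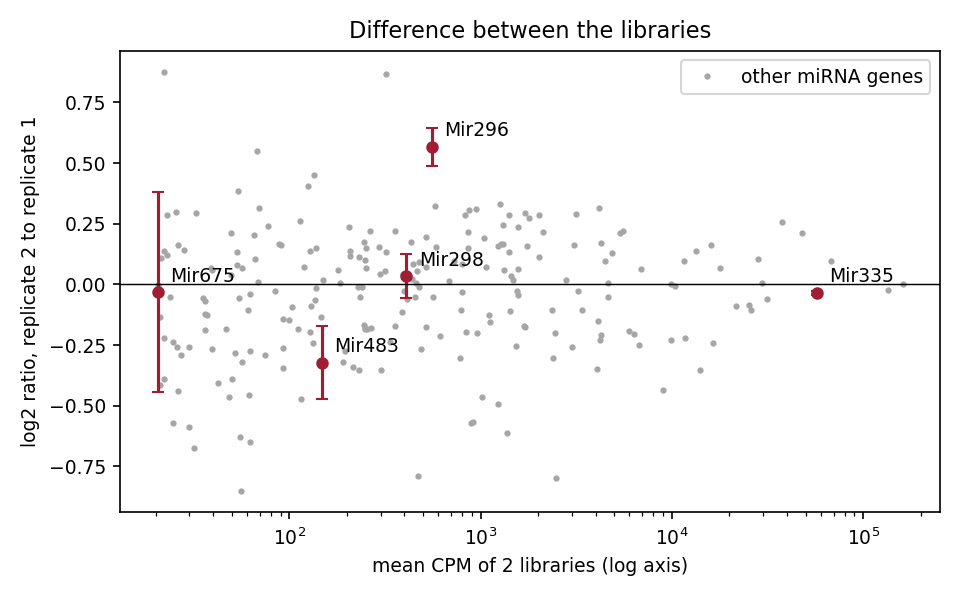
Log2 ratio of replicate 2 to replicate 1 against mean CPM (log axis) for the 233 miRNA genes whose mean count reached 100 reads, with the 5 imprinted genes among them in red with exact 95% intervals and the others in grey. Mir296 lies at 0.57, Mir483 at -0.32, and the other imprinted genes lie between -0.035 and 0.034.

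Markers of other cell types also differed between the libraries. The erythroid markers went opposite ways, Mir144 from 228 CPM in replicate 1 to 415 CPM in replicate 2 and Mir451a from 1064 to 716 CPM, and their sum went from 1292 to 1131 CPM. The leukocyte markers also went opposite ways, Mir223 from 1232 to 1381 CPM and Mir150 from 213 to 176 CPM, with sums of 1445 and 1558 CPM. Of the smooth muscle and mesenchyme markers, Mir143 went from 65604 to 70070 CPM, while Mir145a, at 1570 and 1538 CPM, was not called. Their sums were 67174 and 71609 CPM. Single epithelial markers differed although their sums were close. Their log2 ratios of replicate 2 to replicate 1 were -0.21 for Mir200b, 0.00044 for Mir200c, 0.096 for Mir429 and 0.21 for Mir375. The multiciliated markers Mir449a and Mir34c stood at 0.068 and -0.23. In whole tissue, more cells of a type and more RNA per cell cannot be told apart. The part of these markers in the values of Mir296 and Mir483 was not tested.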

How the data were processed

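The authors deposited raw read counts per miRNA gene for each library, on mm10 with GENCODE M4, per the labels and the text deposited with the tables. The sources used here name no aligner, counter, trimming or filter. The 3 unnamed count columns were read as either strand, own strand and opposite strand. On each gene the first is the other columns added up. The single-strand column with the larger total was taken as the own strand of all genes and used. This reading comes from the values, and no source states it. The 4 rows that name no gene, which hold 34.6% and 36.7% of all reads as reads mapped to several places, stayed out of totals and tests. Symbols and positions came from GENCODE M21 (1894 of 1973 identifiers matched), sequences from RefSeq (GRCm38.p6), and folding energies from RNAfold 2.7.2. Of the measured genes, 869 had a RefSeq hairpin.

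Exact intervals and binomial tests used scipy 1.17.1, at 95% and an adjusted p of 0.05. A quasi-likelihood fit (edgeR) was not possible with 1 library on each side. A count of 0 was taken to allow 3 reads. Alternatives were either-strand reads, all reads as denominator, TMM (edgeR 4.0.16), DESeq2 1.42.0 size factors, reads + 1 in ratios, no filter, and each library alone. Named were the 5 genes, their neighbours in level, genes sharing a seed (none), the 3 highest genes of each imprinted list, and the markers. The members and lists were chosen with earlier results of these data known.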

Additional observations from a re-analysis of the deposited data

How the results depend on the processing

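With 2 libraries of 1 group, p-values measure only counting error and the spread between libraries has 1 degree of freedom. The numbers in the labels name pups within 1 group. No paired analysis was possible because there is no second group. Per 1000000 of all reads in place of reads on miRNA genes, Mir335 stood at 30615, Mir296 at 297, Mir298 at 218, Mir483 at 79.1 and Mir675 at 10.97, and the summed share was 3.12% for all 5 genes and 0.0605% without Mir335. With either-strand reads, Mir335 stood at 56141 CPM, Mir298 at 401 CPM and Mir675 at 20.1 CPM, and the share of all 5 genes at 5.73%. Between the libraries, the log2 ratio of Mir335 turned from -0.035 to 0.034 with TMM scaling and 0.018 with DESeq2's size factors, and that of Mir675, which passed no test, from -0.033 to 0.037 and 0.021. Mir296 stayed higher and Mir483 lower in replicate 2 in these and the remaining settings run. The adjusted p of Mir298 in the exact test ranged from 0.0523 with TMM scaling to 0.802 without the filter on low counts. The other 47 values of levels, shares, ratios and counts of calls, and 16 of single genes, were labelled unchanged. Levels, shares and ratios had moved by less than the SD, and single genes had kept their call and direction. Values from each library alone meet this rule whatever the data, because either of 2 values lies within their SD of the mean. They are no sign of stability. TMM and DESeq2's size factors raise 1 library and lower the other, so a mean level over both can hardly move. Ratios between the genes with either-strand reads could hardly move, because these genes had almost no opposite-strand reads. Those labels are no sign of stability either. Counts of calls were judged by their fold change and not by the SD. The number of genes called lay between 147 and 165. From 1 library alone, the log2 ratio of Mir296 to Mir298 was 0.16 or 0.69. With 94 and 110 reads, Mir675 is the gene that depth limits most.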

Other observations

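Mir296 and Mir298 lie 378 bases apart on the same strand, and their ratio changed between the libraries by 1.45-fold (exact 95% interval 1.33 to 1.57, counting error only). Each pup has a single library, so differences between pups and between library preparations cannot be told apart. This was set beside other neighbouring precursors, in a comparison chosen after the values were seen. Among 49 pairs of adjacent miRNA genes on the same strand, at most 1000 bases apart and each with a mean of at least 100 reads, the median absolute change of the log2 ratio between the libraries was 0.21. For Mir296 to Mir298 it was 0.53, and 6 pairs changed more. The largest change, 1.44, was that of Mir144 to Mir451a, followed by Mir134 to Mir668 at 0.99 and Mir15b to Mir16-2 at 0.86.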
